A study of Homo sapiens with 2 samples.

Results

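The genes described here build and run the cilium: 50 genes of intraflagellar transport, the BBSome, the ciliary transition zone, ciliary membrane traffic and Hedgehog signalling, taken as a list of symbols without the CEP and KIF families. Of the 50, 49 had a probe set that names only that gene, and all 49 passed the signal filter, among 12769 genes that passed it in the whole data set. The remaining gene, TTC21B, an IFT-A subunit, shares its probe set's annotation with another gene and has no value here. The symbols were chosen with values of this same comparison in view, so all differences below are descriptions and none is tested.

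RNA came from HEK-293T, an established human embryonic kidney line, transfected for 48 h with 50 nM of either miR-194 mimic or a negative control mimic in a lipid reagent. A mimic is a synthetic small RNA duplex that loads the silencing complex like the natural microRNA. Each group is 1 Affymetrix array, so there is no replicate error and no p-value, and a difference between the cultures or the labelling reactions cannot be told apart from the mimic. The labels name neither the arm of miR-194 nor the sequence of the control mimic. Fewer cells of a state and less RNA per cell cannot be told apart in such bulk RNA, and whether the cells carried cilia was not measured.

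A primary cilium is an antenna of microtubules wrapped in membrane. Intraflagellar transport (IFT) trains carry tubulin and receptors along it: the IFT-B complex moves outward with kinesin, and IFT-A and the dynein-2 motor are needed for the return. The BBSome is an adaptor that links membrane proteins to the trains, and the transition zone at the base of the cilium is a gate for what enters and leaves. In vertebrates the Hedgehog receptors PTCH1 and SMO and the GLI transcription factors work through the cilium.

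A microRNA recognises its targets mainly through its seed, bases 2 to 8 from the 5′ end. The mature sequences of both arms of miR-194 are given from RefSeq (GRCh38.p14), because the mimic is built on miR-194, with the seed in capitals. The 5p arm is the same at both of its loci, MIR194-1 at chr1:220118206-220118227 and MIR194-2 at chr11:64891404-64891425, both on the minus strand. The 3p arm is listed at chr11:64891368-64891389.
hsa-miR-194-5p: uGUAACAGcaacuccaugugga
hsa-miR-194-3p: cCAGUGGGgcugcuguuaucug
The seeds of the arms differ, and the transcript letters that pair with the 5p seed are CUGUUAC. Transcript sequences were not used here, so no site was counted in any of the genes below.

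Signals below are the deposited log2 values raised to the power of 2, and every difference is the log2 value of the miR-194 array minus that of the control array, for the brightest probe set of a gene. The value after ± is the probe set error, taken from the 2 brightest kept probe sets of each gene on these arrays. The SD of the gap between their log2 differences was divided by the square root of 2. This error was 0.38 at low, 0.31 at middle and 0.27 at high signal. It leaves out variation between cultures. A signal under the array's median, 68.6 on the control array and 66.8 on the miR-194 array, was raised to that floor, and a probe set was kept when it passed the floor on at least 1 array. Probe sets whose names end in _s_at, _x_at or _a_at were designed on sequence that several transcripts can share and are called shared-sequence probe sets. Both arrays were scaled by the authors to a common level (2% trimmed means of 500.1 on each), and the median difference of all kept genes was 0.02. All of 7 genes that HEK-293 cells are known to express, among them LIN28B, PAX2 and VIM, passed the filter. So did 12769 of the 19775 genes with a probe set of their own, so passing is no check of the line's identity. Of 16 markers of multiciliated cells, 5 passed the filter, 9 lay under the floor on both arrays and 2 had no probe set of their own. Of those that passed, FOXJ1, DNAI1, CCDC40 and CIMAP3 did so on 1 array only, and CCNO lay above the floor on both.

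Of the 49 ciliary genes, 13 (26.5%) were lower with the miR-194 mimic by at least 1.5-fold, and 0 were that much higher. Over all 12769 genes, 7.31% were lower and 2.98% were higher by 1.5-fold. At 2-fold, 6 ciliary genes were lower, against 1.42% of all genes, and 0 were higher, against 0.431%. The median ciliary gene stood at -0.14, and 34 of 49 were below 0, against 47.6% of all genes. The members just inside and just outside the 1.5-fold line were TMEM231 at -0.64 and TMEM67 at -0.57. For 29 of the 49 genes the difference was smaller than its probe set error, and the matching share over all genes is not given here. Of the 13 lower genes 10, and 647 of the 933 lower genes in all, differed by 2 such errors or more. With low signals raised to the 75th percentile of each array, 8 of the 38 ciliary genes still measured were lower by 1.5-fold, against 6% of all genes. The median ciliary gene was at -0.062 when a gene's probe sets were averaged.

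**Figure D1:**
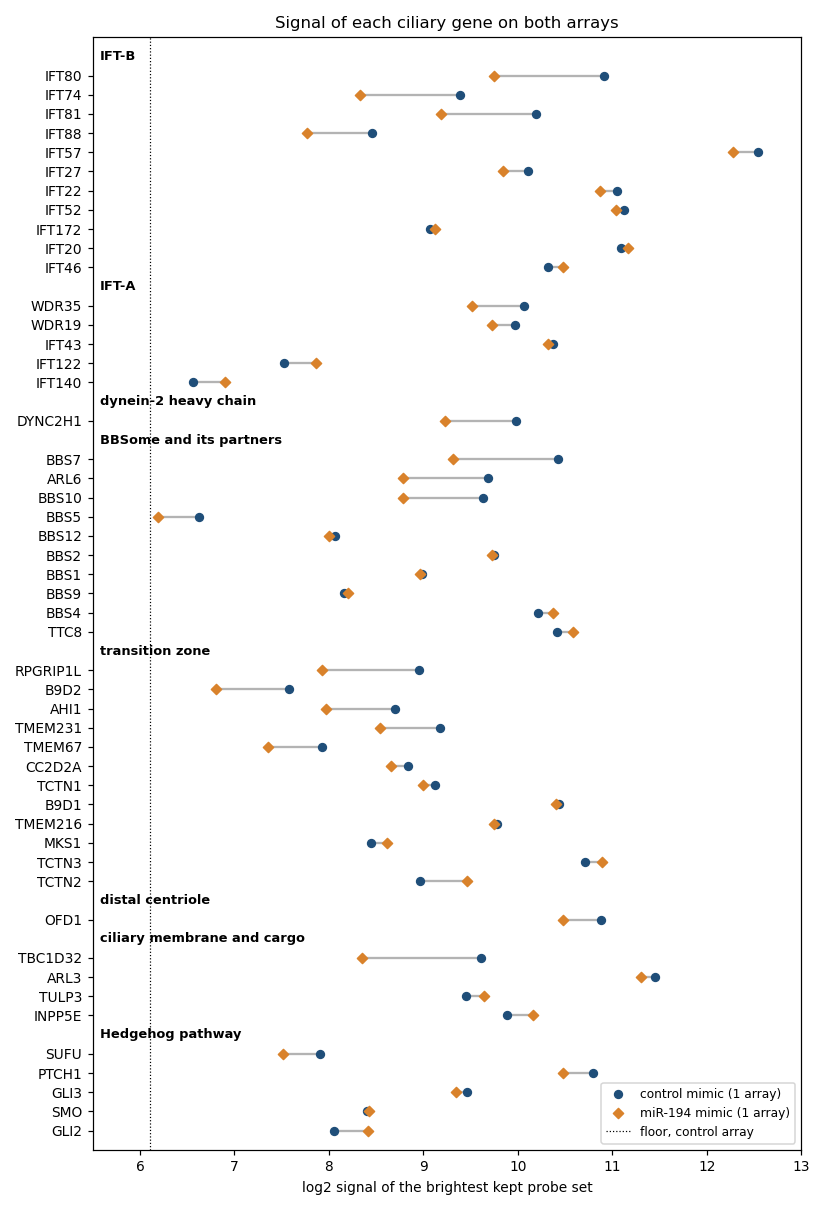
Log2 signal (x axis) of the brightest kept probe set of each of the 49 ciliary genes (y axis, grouped by role) on the control array (circles) and the miR-194 array (diamonds), 1 array each. The widest gaps, with the miR-194 array lower, belong to TBC1D32, IFT80, BBS7, IFT74, RPGRIP1L and IFT81, and all 49 pairs lie above the control array's floor of 6.10.

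**Figure D2:**
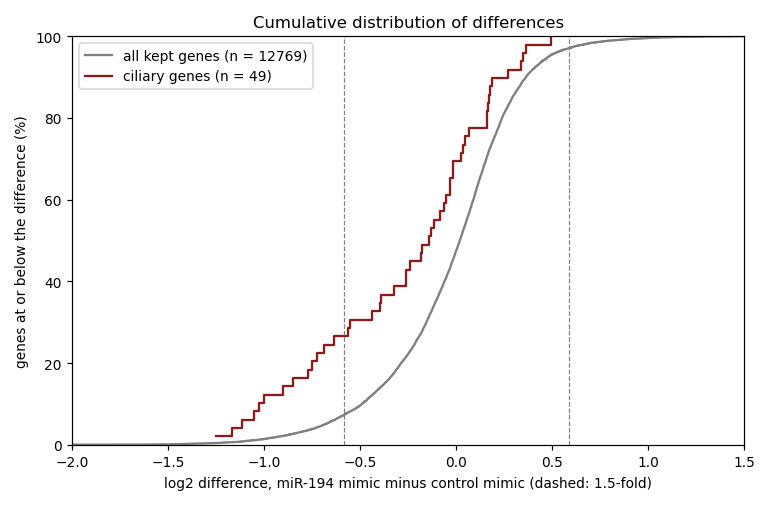
Cumulative share of genes (y axis, %) at or below each log2 difference (x axis) for the 49 ciliary genes and for all 12769 kept genes, with dashed lines at 1.5-fold. At the left dashed line the ciliary curve stands at 26.5% and the curve of all genes at 7.31%, and no ciliary gene lies right of the right line.

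In the outward IFT-B complex, some genes were lower while their partners lay short of the threshold. In all, 4 of 11 genes were lower by 1.5-fold (IFT74, IFT80, IFT81 and IFT88), the other 7 lay between -0.26 and 0.16, and the median of the complex was -0.26. IFT80, a subunit of the peripheral part of the complex, read 1925 on the control array and 856 on the miR-194 array. The difference was -1.17 ± 0.31, or 2.25-fold, and the second IFT80 probe set, which is not of a shared-sequence type, read 990 and 514 (-0.95). IFT74 and IFT81, which bind each other and together bind tubulin, were lower by nearly the same factor.
IFT74 read 669 on the control array and 322 on the miR-194 array (-1.05 ± 0.38), and its second probe set read 151 and 81.7 (-0.89). The IFT81 signal was 1165 and 581 (-1.003 ± 0.31), on a single kept probe set. IFT88, the core subunit mutated in the classic mouse model of cystic kidney, read 351 and 218 (-0.69 ± 0.38), also on a single kept probe set. For each of these 4 genes every kept probe set was lower on the miR-194 array.

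The rest of IFT-B did not pass the threshold. IFT52 and IFT46 belong to the same core as IFT88, and their signals were 2231 and 2103 for IFT52 (-0.09 ± 0.27) and 1278 and 1430 for IFT46 (0.16 ± 0.31). IFT46 was the highest member of the complex. IFT57, a peripheral subunit, read 5976 and 4979 (-0.26 ± 0.27), with its other probe sets at 0.19 and -0.24. IFT20, which also works at the Golgi, was at 0.07 ± 0.27, and IFT172, the large peripheral subunit, at 0.05 ± 0.38. The small GTPases of the complex, IFT22 and IFT27, were at -0.18 ± 0.27 and -0.26 ± 0.31, and each had another probe set above 0. For IFT27 those probe sets read 0.30 and at least 0.59, the latter under the floor on the control array, so the sign for IFT27 depends on the probe set.

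**Figure D3:**
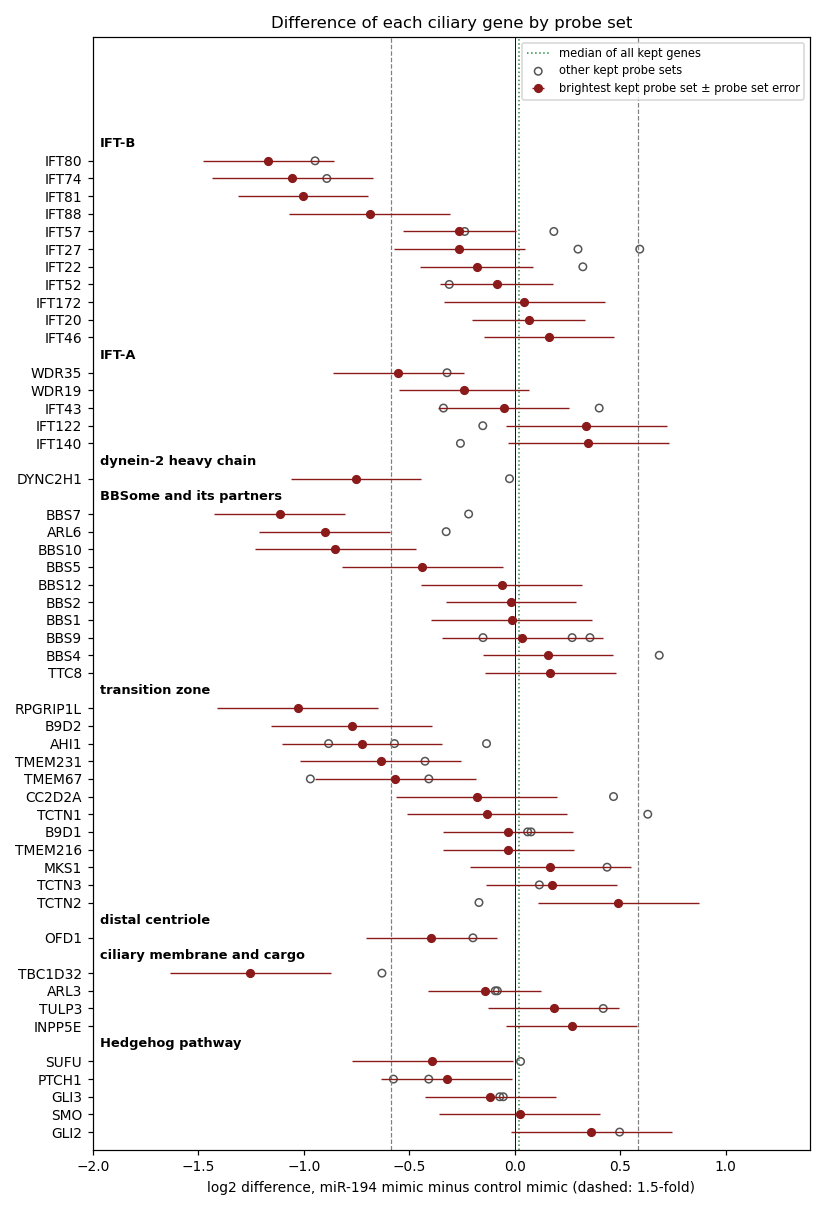
Log2 difference, miR-194 mimic minus control mimic (x axis), for each ciliary gene (y axis, grouped by role): filled points are the brightest kept probe set with the probe set error as a bar, open points the gene's other kept probe sets. The dashed lines mark 1.5-fold and the dotted line the median of all kept genes. In IFT-B, the BBSome group and the transition zone, a set of 3 to 4 genes lies left of the left line while most of their partners sit around 0.

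In the return machinery, the motor's heavy chain was lower by 1.5-fold on 1 of its 2 kept probe sets, and IFT-A genes lay on both sides of 0. DYNC2H1, the heavy chain of dynein-2, read 1011 on the control array and 600 with the miR-194 mimic (-0.75 ± 0.31). The second DYNC2H1 probe set, with signals of 158 and 156, was at -0.02, so the difference rests on its brightest probe set, and the mean of both was -0.39. None of the 5 measured IFT-A genes passed 1.5-fold in either direction, and their median was -0.05. WDR35 came closest, with signals of 1071 and 731 (-0.55 ± 0.31) and a second probe set at -0.32. WDR19 was at -0.24 ± 0.31 and IFT43, the smallest subunit, at -0.05 ± 0.31, with other IFT43 probe sets at -0.34 and 0.40. IFT140 (0.35 ± 0.38) and IFT122 (0.34 ± 0.38) were the highest, both on shared-sequence probe sets, and without such probe sets they were at -0.26 and -0.15.

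In the BBSome group 3 of 10 genes were lower by 1.5-fold, and each has a different job. BBS7, a propeller-bearing core subunit, read 1372 on the control array and 634 with the miR-194 mimic (-1.11 ± 0.31, 2.16-fold). The second BBS7 probe set, 617 and 530, was lower by much less (-0.22). ARL6, the GTPase that brings the BBSome to membranes, read 824 and 441 (-0.90 ± 0.31), with a second probe set at 659 and 526 (-0.33). BBS10, a chaperonin-like protein needed to assemble the BBSome, read 793 and 440 (-0.85 ± 0.38) on its single kept probe set.

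Several of their partners lay within their probe set error of 0. BBS2 and BBS9 contact BBS7 in the complex, and BBS2 read 860 and 849 (-0.02 ± 0.31) while BBS9 read 287 and 294 (0.04 ± 0.38). Other BBS9 probe sets ran from -0.15 or lower, with the miR-194 signal under the floor, to 0.36. BBS12, which works beside BBS10 in assembly, was at -0.06 ± 0.38. BBS1, the subunit that binds ARL6, was at -0.01 ± 0.38. BBS5 was at -0.44 ± 0.38, with signals of 98.8 and 72.9 against a floor of 66.8 on the miR-194 array. TTC8 (0.17 ± 0.31) and BBS4 (0.16 ± 0.31) were the highest. The second BBS4 probe set, of a shared-sequence type, read 786 and 1263 (0.68).

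At the transition zone 4 of 12 genes were lower by 1.5-fold and the median was -0.16. RPGRIP1L, a scaffold of the gate, read 497 on the control array and 244 with the miR-194 mimic (-1.03 ± 0.38, 2.04-fold), on 1 shared-sequence probe set. B9D2, a member of the B9 domain trio, read 191 and 112 (-0.77 ± 0.38) on its single kept probe set. AHI1, the jouberin scaffold, read 415 and 251 (-0.72 ± 0.38), and its other 3 kept probe sets were at -0.13, -0.88 and -0.57. TMEM231, a membrane protein of the gate, read 580 and 373 (-0.64 ± 0.38), with a second probe set at -0.43. All kept probe sets of these genes were lower on the miR-194 array.

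TMEM67, a receptor-like membrane protein, lay just short of the line at -0.57 ± 0.38. Its other kept probe sets were at -0.41 and -0.97, so that all 3 were below 0. Of the other B9 domain proteins, B9D1 was at -0.03 ± 0.31 on signals of 1388 and 1357. MKS1 was at 0.17 ± 0.38, with a second probe set at 0.44. The tectonic family ran from TCTN1 at -0.13 ± 0.38 through TCTN3 at 0.18 ± 0.31 to TCTN2 at 0.49 ± 0.38, the highest of all 49 genes, with signals of 500 and 703. The TCTN2 value comes from a shared-sequence probe set, and the second TCTN2 probe set was at -0.17. TCTN1 had a second probe set at 0.63. CC2D2A, a coiled-coil scaffold, was at -0.18 ± 0.38 and at 0.47 without shared-sequence probe sets, and TMEM216 was at -0.03 ± 0.31. OFD1, which sits at the distal end of the centriole, was at -0.40 ± 0.31, with its second probe set at -0.20.

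Among genes of the ciliary membrane and its cargo, TBC1D32 held the lowest value of the 49. Known also as broad-minded, it is needed for Hedgehog responses and ciliary structure in the mouse. On the control array it read 780 and on the miR-194 array 327 (-1.25 ± 0.38, 2.38-fold), and the second probe set read 202 and 131 (-0.63). ARL3, the GTPase that releases lipid-modified cargo in the cilium, was at -0.14 ± 0.27, with all 3 kept probe sets between -0.14 and -0.08. INPP5E, the phosphoinositide phosphatase of the ciliary membrane, was at 0.27 ± 0.31. TULP3, which brings receptors into the cilium with IFT-A, was at 0.18 ± 0.31, with a second probe set at 0.42.

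None of the 5 Hedgehog pathway genes passed 1.5-fold. PTCH1, the receptor and itself a transcriptional target of the pathway, read 1779 and 1422 (-0.32 ± 0.31), and its other probe sets, near the floor, were at -0.57 and, with miR-194 under the floor, at or below -0.41. SUFU, the negative regulator that holds GLI proteins, was lowest at -0.39 ± 0.38. Its second probe set read 16.1 on the control array, under the floor, and 70.0 with miR-194, which puts it at 0.03 or higher. SMO, the signal transducer, was at 0.02 ± 0.38. GLI2 was highest at 0.36 ± 0.38 with a second probe set at 0.50, and GLI3 was at -0.12 ± 0.31. GLI1, the pathway's usual reporter gene, was under the floor on both arrays.

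Probe sets of a gene were compared next, since they share the RNA but not the probes. The ciliary genes had 93 kept probe sets, of which 18 (19.4%) were lower by 1.5-fold or more, against 7.99% of all kept probe sets. Those higher by 1.5-fold numbered 3 (3.23%), against 5.08% of all, and they belong to BBS4, TCTN1 and IFT27. Of the 13 lower genes 8 had a second kept probe set, which was below 0 for all 8, at -0.02 for DYNC2H1. Over all 545 genes with a second probe set and a brightest one lower by 1.5-fold, it was below 0 for 426 (78.2%). For 3 of the 8 it was also lower by 1.5-fold, as it was for 170 of the 545 (31.2%). These 3 were IFT74, IFT80 and TBC1D32, which are also the members whose kept probe sets were all lower by 1.5-fold, among 32 members with 2 or more kept probe sets (1.35% of all such genes). None of the 32, that is 0, had all its probe sets higher by 1.5-fold, against 0.232% of such genes. All probe sets lay below 0 for 15 of the 32, against 20.2% of such genes, and above 0 for 5, against 25.8%, while 12 had mixed signs. The other 5 with a second probe set, DYNC2H1, BBS7, ARL6, AHI1 and TMEM231, were lower by 1.5-fold on the brightest and by less on the next.

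The genes in the list are longer than average, and length moved with the difference over all genes. The median genomic length was 52.3 kb for the ciliary genes and 29.8 kb for all kept genes. In the longest of 5 length classes, from 91.7 kb upward, 14.1% of all genes were lower by 1.5-fold, and 8 of the 16 ciliary genes in it were. These 8 were the 4 lower IFT-B genes, DYNC2H1, RPGRIP1L, AHI1 and TBC1D32. The other 8 of that class were not lower by 1.5-fold, among them BBS9, which at 506 kb is the longest of the 49, and GLI3 at 303 kb. DYNC2H1, at 370 kb, lies between them in length.

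The 5 lower genes outside the longest class were BBS7 (46.1 kb), ARL6 (36.7 kb), TMEM231 (19.5 kb), B9D2 (9.73 kb) and BBS10, which at 3.94 kb is in the shortest class, where 3.72% of all genes were lower. With the median of its length class subtracted from each gene, 12 of the 49 were lower by 1.5-fold, all but IFT88, against 7.01% of all genes, and the median ciliary gene was at -0.13. Spearman's rho between length and difference was -0.23 over the 49 ciliary genes and -0.22 over 12757 genes, given as a description across genes of the same 2 arrays. The subtraction shifts each length class as a whole and leaves its spread, and the 7.01% covers all classes together. It is therefore not a comparison with genes of matched length. The part of length in the result was not tested.

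**Figure D4:**
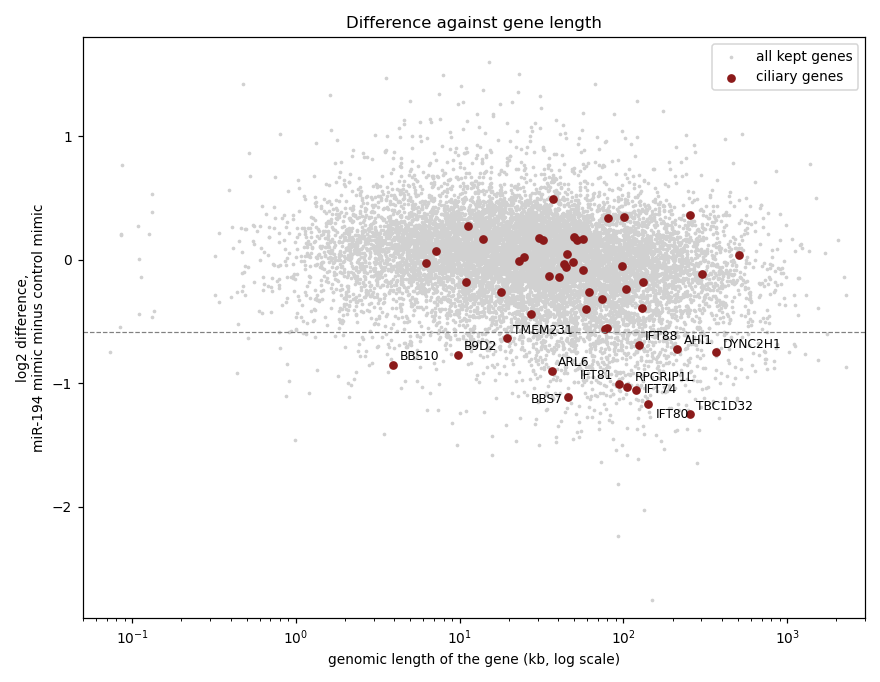
Log2 difference (y axis) against genomic length (x axis, kb, log scale) for all kept genes (grey) and the 49 ciliary genes (red), with the lower genes named and a dashed line at 1.5-fold. Of the 16 ciliary genes in the longest class 8 lie under the line, while BBS10 and B9D2 lie under it at 3.94 and 9.73 kb.

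Further ciliary genes, on lists also drawn up with results of these data known, were summarised in the same way. Of 53 further genes of transport, the transition zone, the inversin compartment and ciliary membrane signalling, 46 were kept, 3 (6.52%) were lower by 1.5-fold and 0 were higher, with a median of -0.02. That share is close to the 7.31% of all genes. CSPP1, a microtubule-binding protein of the cilium base, was the lowest at -0.99 ± 0.31, with signals of 2127 and 1073 and other probe sets up to 0.11. DYNC2LI1, the light intermediate chain that partners DYNC2H1, read 1936 and 1056 (-0.87 ± 0.31), although its 4 kept probe sets reached up to 1.07. The other dynein-2 subunits on these lists did not pass 1.5-fold: DYNC2I1 was at 0.17 ± 0.38, DYNC2I2 at 0.0084 ± 0.31 and DYNLT2B at -0.15 ± 0.31. RP2, which acts on ARL3 as its GTPase-activating protein, was at -0.66 ± 0.31. MKKS, the third chaperonin-like protein beside BBS10 and BBS12, was at 0.01 ± 0.27.

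RFX transcription factors bind the X-box, a DNA motif found in promoters of many ciliary genes, so the promoters of the listed genes were searched for it. Promoters were 300 bases from RefSeq (GRCh38.p14), 250 before and 50 after the start site, and 44 of the 50 genes had one. An X-box arm, spelled GTTGCC and counted on both strands, was present in 20 of the 44 (45.5%), against 12.2% of 27305 promoters in the table. Among the lower genes 8 of 13 held it, and among the other measured genes 12 of 30. The paired form GTTNCNNNNGNAAC, which reads the same on both strands and overlaps the arm, was found in 2 of the 44, those of ARL6 and B9D2, against 0.992% of all promoters. A match is a string of letters and not a measured binding site.

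The arm lay wholly before the start site in 6 lower genes and in 10 that were not lower. It is shown for all 6, and for the lowest 2 and the highest 2 of the 10, on the strand of the gene, with the arm in capitals (GTTGCC, or GGCAAC where it lies on the other strand). For ARL6 the capitals mark the whole paired form. TMEM231 and OFD1 each hold a further arm before the start site, which is not shown.
ARL6, chr3:97764728-97764753, plus strand: gctcctGTTGCCAAGGGAACggtgcc
B9D2, chr19:41364150-41364175, minus strand: ctaggggaggagcctgctGTTGCCcc
BBS10, chr12:76348621-76348646, minus strand: ggggcttaggGTTGCCgctccaggca
DYNC2H1, chr11:103109365-103109390, plus strand: gccccgagagGGCAACgcccaccgcg
IFT74, chr9:26946863-26946888, plus strand: acacagccggGGCAACccgactccca
TMEM231, chr16:75556277-75556302, minus strand: tgagccgtcgGTTGCCgtggagaccg
BBS5, chr2:169479468-169479493, plus strand: cagaggcggcccGTTGCCttggagcc
OFD1, chrX:13734665-13734690, plus strand: gccggtgctgGGCAACcaagctcatg
TULP3, chr12:2890841-2890866, plus strand: gtggaacgcgGTTGCCaggaggcggg
IFT122, chr3:129440198-129440223, plus strand: taccgcgcatgtacGTTGCCaggggt
The last 4 belong to genes at -0.44, -0.40, 0.18 and 0.34, so the arm is present on both sides of the 1.5-fold line. TBC1D32, IFT80, BBS7, RPGRIP1L and AHI1, all lower, had no match in the window, and the matches of IFT81 and IFT88 lie across or after the start site and are not shown.

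The RFX factors themselves were mixed. RFX3, which drives ciliary genes in many tissues, read 123 on the control array and 48.3 with miR-194, under the floor, which puts its only kept probe set at least 1.84-fold lower. RFX7 was at -0.45 ± 0.31, RFX1 at 0.10 ± 0.38 and RFX5 at 0.21 ± 0.27. RFX2 was at -0.28 ± 0.38, although its kept probe sets reached up to 0.86. FOXJ1, the factor of motile cilia, read 31.1 and 74.4, under the floor on the control array and just above it on the miR-194 array. The part of these factors in the ciliary gene values was not tested.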

How the data were processed

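Total RNA of HEK-293T cells was read on 2 Affymetrix arrays, 1 per mimic, grouped by the treatment in the labels. The authors deposited log2 signals, 1 for each probe set, made with MAS5 per the submitters' processing notes. The sources used here state neither log base nor scaling target, and base 2 was inferred from equal trimmed means. Detection calls and scanner files were not used here. Of 54675 probe sets, 62 array controls and 1801 naming several genes were left out, and 11721 were unnamed here. Signals under each array's median (log2 6.10 and 6.06) were set to it. A probe set was kept when its floored mean exceeded the mean floor, and the brightest kept probe set stood for its gene. A gene under the floor on 1 array has only a bound. Names and lengths came from RefSeq GRCh38.p14 by Entrez identifier (all 49 matched).

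The members, gene lists and motifs were chosen with earlier results of these data known. Text names every member past 1.5-fold, the extremes of each role and other cilium genes past 1.5-fold, and MKKS, dynein-2 subunits, BBS partners, RFX factors and further members were added after their values were seen. Values were computed with pandas 2.3.3 and statsmodels 0.14.6 in Python 3.11.15. The procedure was run on simulated data with differences far past the threshold planted in genes well above the floor. That run does not bear on genes near the 1.5-fold line or near the floor. The number of arrays limits the precision. Alternatives were 3 scalings, 3 floors, 2 ways to choose probe sets, a 2-fold threshold and length-class subtraction.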

Additional observations from a re-analysis of the deposited data

How the results depend on the processing

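The count of 13 ciliary genes lower by 1.5-fold held, with the same 13 genes, under 3 other scalings. These were equal medians, quantile normalization and loess with a span of 0.3. Under them 6.34%, 6.74% and 6.81% of all genes were lower by 1.5-fold. With low signals floored at the 25th percentile, or without any floor, the 13 could not change. All 49 brightest probe sets lay above the main floor on both arrays. The share of all genes lower by 1.5-fold was 13.5% and 17.8% under these settings. Flooring at the 75th percentile left 8 of 38 measured genes: IFT88 and B9D2 had no value, and RPGRIP1L (-0.35), AHI1 (-0.090) and TMEM231 (-0.57) were bounds short of 1.5-fold. Of all genes, 6% were lower with that floor. At a 2-fold threshold the count was 6, against 1.42% of all genes. Averaging the probe sets of each gene gave 11, against 5.29% of all genes, with AHI1, DYNC2H1 and TMEM231 lost and TMEM67 gained. Without shared-sequence probe sets it was 12 of 40, against 8.66% of all genes, since RPGRIP1L had no other kept probe set. The count of higher genes was 0 under all of these. The median ciliary gene, -0.14, moved to -0.062 with the mean over probe sets and to -0.23 without shared-sequence probe sets. Single-gene values were compared under the scalings, floors and probe set choices, and not after length-class subtraction. Among these values, 363 stayed within the probe set error of the reported value and 9 moved further. None of the 13 lower genes changed sign. The 363 include the values under the 25th percentile floor and without a floor, which could not move. The scalings moved the median of all genes by at most 0.04. Signals near the floor limit BBS5, IFT140 and the faint probe sets. No paired analysis was possible because each group has 1 array.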
